A study of Mus musculus with 12 samples.

Results

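A set of 7 Wnt pathway genes was followed through pull-downs of glial ribosomes from the muscularis of the mouse small intestine: the ligand Wnt6, the secreted Wnt binders Sfrp5 and Sfrp1, the receptors Fzd1, Fzd2 and Fzd7, and the feedback gene Axin2. They were chosen by gene name with earlier results of these data known, and all 7 were among the 12975 genes counted. The values below therefore describe these genes and are no independent test of their enrichment. RNA was measured in 12 libraries from 6 PLPCreERT2 Rpl22HA mice, whose Rpl22 allele is given as B6J.129(Cg)-Rpl22tm1.1Psam/SjJ. These mice carry a Cre that is directed to enteric glial cells and is active after tamoxifen, and the Cre switches the ribosomal protein Rpl22 to a form with an HA tag (RiboTag), so that ribosomes of the cells with active Cre can be precipitated. Mice received tamoxifen at 10 to 12 weeks of age and were killed 3 to 4 weeks after the first injection, either naive (T0, animals 1, 2 and 4) or 3 h after intestinal manipulation (T3, animals 1, 3 and 4), a surgical handling of the bowel that inflames its muscle layer. The numbers 1 and 4 stand for different mice at the 2 times. The cleared homogenate of each mouse was divided between anti-HA antibody (HA) and an isotype control antibody (IgG), which gave 4 groups of 3 libraries. The IgG libraries therefore came from animals with the same alleles and the same tamoxifen, and they measured what the beads and antibody bound without the tag.

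Wnt proteins are lipid-modified secreted ligands that bind Frizzled receptors (Fzd) together with a co-receptor. In the canonical branch the bound receptor inhibits the complex built on Axin that otherwise degrades beta-catenin, and beta-catenin then acts with TCF and LEF factors on target genes, one of which, Axin2, encodes a part of the same degrading complex and so dampens the signal. Secreted Frizzled-related proteins (Sfrp) carry a Frizzled-like domain that binds Wnt proteins outside the cell. In the gut, Wnt ligands and their modulators are best known for the upkeep of the epithelium, with mesenchymal cells among their sources.

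Library totals were 1221788 to 2870591 counts in the HA pull-downs and 88136 to 1289833 in the IgG pull-downs, and the 3 IgG T3 libraries, with at most 248522 counts, were the least precise group. Levels are given as CPM, counts per 1000000 of a library's total. Where a gene had no count, its level could still be as high as 3 counts, or 1.05 CPM in the library with the most counts and 34.0 CPM in that with the fewest (counting error only). The tagged gene Rpl22 had 83.3 ± 9.02 CPM (SD, n = 3) at T0 and 65.2 ± 5.89 at T3 in HA libraries, and 23.8 ± 7.60 and 24.4 ± 12.0 in IgG libraries. The 12 glial markers summed to between 3781 and 4698 CPM in HA T0 and between 233 and 330 in IgG T0, so glial markers were enriched in the HA pull-down. Markers of interstitial cells of Cajal, the pacemaker cells of the gut muscle, were also higher in HA, with 2790 to 3555 CPM in HA T0 against 278 to 368 in IgG T0.

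At T0, the ligand and the secreted binders stood out in the HA pull-down. Among the 7 genes, Wnt6, Sfrp5 and Sfrp1 were higher in HA than in IgG (adjusted p under 0.05, edgeR quasi-likelihood test), none was lower, and the 3 receptors and Axin2 did not pass. Across all 9823 genes tested, 30.3% passed in either direction, 16.0% were higher and 14.4% were lower. The libraries of the 2 pull-downs did not overlap in CPM for 4 of the 7 genes, beside 44.8% of all genes tested. The median log2 difference of the 7 genes was 0.67, against -0.02 over all genes. At T3, 6 of the 7 genes had enough counts to be tested, and Sfrp5, Sfrp1 and Fzd1 were higher in HA, beside 21.9% of 7200 genes that passed in either direction, 11.8% that were higher and 10.2% that were lower. The pull-downs did not overlap for these same 3 of the 6 genes, beside 35.8% of all genes tested.

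**Figure D1:**
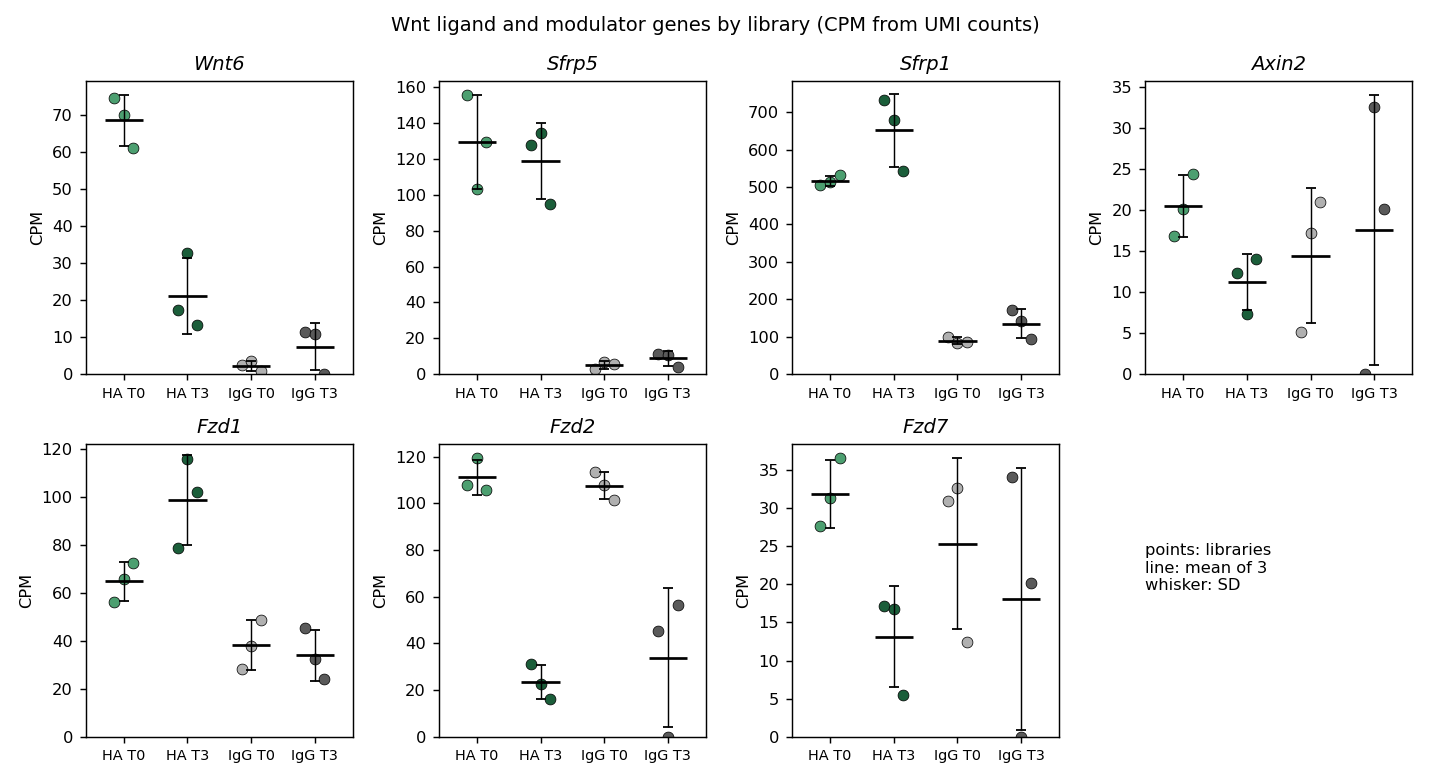
CPM from UMI counts (vertical axes, each starting at 0) of the 7 genes in every library of the 4 groups. Points are libraries, horizontal lines are means of 3 libraries and whiskers are SDs. Wnt6, Sfrp5 and Sfrp1 lay above every IgG library in all HA libraries, while Fzd2 started at the same level in both pull-downs at T0 and was lower in all T3 libraries of both.

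Wnt6 encodes a Wnt ligand and lies on chromosome 1 (GRCm38 74771892 to 74785322, plus strand, 4 exons). In the HA T0 libraries of animals 1, 2 and 4 it was at 74.5, 69.8 and 61.0 CPM (194, 125 and 175 counts), and in the IgG T0 libraries of the same animals at 2.58, 3.43 and 0.775 CPM (1, 2 and 1 counts). Every HA library was thus far above every IgG library in naive tissue. The counts pooled over the animals gave a ratio of 38.4 between HA and IgG (95% exact interval for counting error 14.9 to 141.7). The fitted log2 difference was 5.16 ± 0.45 (SE, adjusted p = 1.796e-06, edgeR), which placed Wnt6 at position 14 of 9823 genes from the highest, although the fitted size depends on the small count added to libraries with so few counts.

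After manipulation Wnt6 fell in the HA pull-down. In the HA T3 libraries of animals 1, 3 and 4 it was at 17.2, 32.8 and 13.2 CPM (21, 49 and 17 counts), all below the lowest HA T0 library, with animal 3 the highest of them. The change from T0 to T3 was -1.41 ± 0.28 on the log2 scale (adjusted p = 0.0006364, edgeR). In IgG T3 the gene had 1, 1 and 0 counts, or 11.3, 10.9 and 0 CPM, and the 0 of animal 4 allows up to 12.1 CPM. HA and IgG therefore did not overlap at T3, but IgG animals 1 and 3 were close below the lowest HA libraries. The pooled HA to IgG ratio at T3 was 4.66 with an interval of 1.25 to 39.1. Wnt6 did not reach the count filter for the test at T3. Fits of all libraries that admitted it gave log2 differences of 2.42 (adjusted p = 0.04569, no filter), 2.36 (adjusted p = 0.05082, at least 5 counts in 1 library) and 2.47 (adjusted p = 0.04228, all 12 libraries), on both sides of the threshold. Without the IgG T3 library of animal 1, 3 or 4 it was also admitted and did not pass. The differences were then 2.92 (adjusted p = 0.1008), 2.91 (adjusted p = 0.07324) and 1.20 (adjusted p = 0.5172, edgeR). Ordered by mean CPM, HA T0 (68.4 ± 6.87) lay above HA T3 (21.1 ± 10.3) beyond the spread. The SDs of HA T3 and IgG T3 (7.40 ± 6.42) overlapped, and IgG T3 and IgG T0 (2.26 ± 1.35) did not differ beyond theirs.

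Sfrp5 encodes a secreted Frizzled-related protein and lies on chromosome 19 (42197971 to 42202252, minus strand, 3 exons). It was at 155.9, 103.4 and 129.6 CPM in HA T0 (406, 185 and 372 counts) and at 2.58, 6.86 and 5.43 CPM in IgG T0 (1, 4 and 7 counts). In HA T3 it was at 127.7, 134.4 and 94.99 CPM (156, 201 and 122 counts) and in IgG T3 at 11.3, 10.9 and 4.02 CPM, with 1 count in each library. No IgG library came near the HA libraries at either time, and the HA libraries of T0 and T3 overlapped. HA exceeded IgG by 4.58 ± 0.35 on the log2 scale at T0 (adjusted p = 4.892e-07) and by 4.11 ± 0.56 at T3 (adjusted p = 6.615e-05, edgeR), and the pooled ratios were 25.0 (interval 14.2 to 48.5) and 17.1 (5.82 to 83.2). Between HA T0 and HA T3 the log2 difference was 0.14 with a 95% interval of -0.28 to 0.55 (adjusted p = 0.6303). This interval did not overlap that of Wnt6 in the same libraries, which ran from -1.99 to -0.83.

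The sequences just upstream of the 2 genes with the largest HA excess, and of Fzd7, are shown here because Wnt6 and Fzd7 fell in HA while Sfrp5 did not. A TCF and LEF type motif, written as CTTTGAT or CTTTGTT, was searched on both strands of the 250 bases before the RefSeq gene start (GRCm38.p6). A promoter entry was found for 5 of the 7 genes, namely Wnt6, Sfrp5, Axin2, Fzd1 and Fzd7. CTTTGTT overlaps the SOX type core ACAAAG read from the other strand. The motif occurred in 8.06% of all 32851 promoters of this length (CTTTGAT in 3.21% and CTTTGTT in 5.03%). Among the 5 it occurred in that of Fzd7 only, on the minus strand, where its reverse complement stands in capitals. A link between the motif and a change in HA was not tested. Wnt6 fell without the motif, and Fzd2, with the largest fall, had no entry. The windows are chr1:74771642-74771891 on the plus strand for Wnt6, chr19:42202253-42202502 on the minus strand for Sfrp5 and chr1:59481897-59482146 on the plus strand for Fzd7, each printed 5′ to 3′ in the direction of transcription.
Wnt6: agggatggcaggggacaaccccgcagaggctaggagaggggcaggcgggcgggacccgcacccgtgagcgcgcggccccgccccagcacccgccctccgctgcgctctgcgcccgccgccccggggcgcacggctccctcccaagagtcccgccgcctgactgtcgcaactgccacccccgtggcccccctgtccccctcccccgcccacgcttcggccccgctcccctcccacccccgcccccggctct
Sfrp5: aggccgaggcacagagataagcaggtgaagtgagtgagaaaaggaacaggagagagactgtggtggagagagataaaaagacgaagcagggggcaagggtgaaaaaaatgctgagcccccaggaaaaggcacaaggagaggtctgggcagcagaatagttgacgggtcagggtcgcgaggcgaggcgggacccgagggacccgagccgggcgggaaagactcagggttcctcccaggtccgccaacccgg
Fzd7: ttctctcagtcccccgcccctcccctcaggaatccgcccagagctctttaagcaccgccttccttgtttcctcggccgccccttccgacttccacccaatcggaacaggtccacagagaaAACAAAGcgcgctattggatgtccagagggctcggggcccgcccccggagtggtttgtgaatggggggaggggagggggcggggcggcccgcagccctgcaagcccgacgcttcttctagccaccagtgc
The 3 windows also differed in base composition, with 79.6% G and C in Wnt6, 59.6% in Sfrp5 and 65.2% in Fzd7.

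Sfrp1, a second secreted Frizzled-related protein, lies on chromosome 8 (23411502 to 23449632, plus strand, 3 exons). It was at 504.5, 512.4 and 531.6 CPM in HA T0 and at 100.5, 82.3 and 85.3 CPM in IgG T0. At T3 it was at 732.5, 679.4 and 542.7 CPM in HA and at 170.2, 141.3 and 92.5 CPM in IgG. All HA libraries lay above all IgG libraries, and all 3 HA T3 libraries lay above all 3 HA T0 libraries, with animal 4 only just above. HA exceeded IgG by 2.51 ± 0.20 on the log2 scale at T0 (adjusted p = 6.545e-07) and by 2.44 ± 0.31 at T3 (adjusted p = 3.183e-05, edgeR). Sfrp1 rose by 0.60 ± 0.17 between HA T0 and HA T3 (adjusted p = 0.008984). That call depended on the scaling: with total counts as the scale the difference was 0.33 (adjusted p = 0.1124). In IgG the difference between the times was 0.51 with an interval of -0.24 to 1.26 (adjusted p = 0.43).

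The Frizzled receptors, which bind Wnt ligands at the cell surface, did not move together. Fzd1 lies on chromosome 5 (4753839 to 4758035, minus strand), Fzd2 on chromosome 11 (102604396 to 102608058, plus strand) and Fzd7 on chromosome 1 (59482424 to 59486955, plus strand), each with 1 exon. After manipulation Fzd1 rose in the HA pull-down and Fzd2 and Fzd7 fell. Counting was over a window of 1000 bases before to 100 bases after each 3′ end, and no other annotated gene overlapped that window in any of the 7 genes.

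Fzd1 was at 56.1, 65.9 and 72.5 CPM in HA T0 and at 28.3, 37.7 and 48.8 CPM in IgG T0. In HA T3 it was at 78.6, 115.7 and 102.0 CPM and in IgG T3 at 45.4, 32.6 and 24.1 CPM, the latter from 4, 3 and 6 counts. The HA T3 libraries were all above the HA T0 libraries, and these were all above the IgG libraries of either time. The rise in HA was 0.88 ± 0.20 on the log2 scale (adjusted p = 0.001698, edgeR). HA exceeded IgG by 1.75 ± 0.42 at T3 (adjusted p = 0.005473, and 0.05049 without the IgG T3 library of animal 4). At T0 the difference was 0.67 ± 0.26 and did not pass (adjusted p = 0.06362), whereas it passed in 3 of 13 alternatives: with the animal as a block, since both pull-downs of a mouse were made from 1 homogenate (adjusted p = 0.03194), without the filter (adjusted p = 0.04585) and without the IgG T0 library of animal 4 (adjusted p = 0.04011). The 2 IgG groups did not differ beyond their spread, with a log2 difference of -0.35 (adjusted p = 0.7245).

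Fzd2 was the receptor with the largest fall. It was at 107.9, 119.6 and 105.9 CPM in HA T0 (281, 214 and 304 counts) and at 113.3, 108.0 and 101.6 CPM in IgG T0 (44, 63 and 131 counts). HA T3 held 31.1, 22.7 and 16.4 CPM (38, 34 and 21 counts) and IgG T3 held 45.4, 0 and 56.3 CPM (4, 0 and 14 counts), where the 0 of animal 3 allows up to 32.6 CPM. The pull-downs overlapped at both times, and within each pull-down every T3 library was below every T0 library. The log2 difference between HA and IgG was 0.03 at T0, with an interval of -0.40 to 0.45. Between HA T0 and HA T3 it fell by 1.99 ± 0.23 on the log2 scale (adjusted p = 1.173e-06, edgeR), and 0.689% of genes had a lower value. In IgG the difference was -1.44 ± 0.53 and did not pass (adjusted p = 0.1342, edgeR). The IgG difference passed in 2 of the 13 alternatives, without the filter (adjusted p = 0.03493) and when all 12 libraries were fitted (adjusted p = 0.0356).

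Fzd7 was at 27.6, 31.3 and 36.6 CPM in HA T0 (72, 56 and 105 counts) and at 30.9, 32.6 and 12.4 CPM in IgG T0 (12, 19 and 16 counts). In HA T3 it was at 17.2, 16.7 and 5.45 CPM (21, 25 and 7 counts) and in IgG T3 at 34.0, 0 and 20.1 CPM (3, 0 and 5 counts). The HA libraries of the 2 times did not overlap, while IgG and HA overlapped at both times. The log2 change in HA was -1.003 ± 0.32 (adjusted p = 0.02076, edgeR). It rested on the HA T3 library of animal 4, without which it was -0.64 (adjusted p = 0.1336), and it did not pass when all 12 libraries were fitted (adjusted p = 0.07394). HA and IgG differed by 0.43 at T0 (interval -0.33 to 1.19) and by -0.42 at T3 (interval -1.96 to 1.12), and neither passed.

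Axin2, the feedback gene widely read as a marker of canonical Wnt signalling, lies on chromosome 11 (108920349 to 108950783, plus strand). It was at 16.9, 20.1 and 24.4 CPM in HA T0 (44, 36 and 70 counts) and at 12.3, 7.36 and 14.0 CPM in HA T3 (15, 11 and 18 counts). In IgG it was at 5.15, 17.1 and 20.9 CPM at T0 (2, 10 and 27 counts) and at 0, 32.6 and 20.1 CPM at T3 (0, 3 and 5 counts). The HA libraries of the 2 times did not overlap, and those of HA and IgG did at both times. Between HA T0 and HA T3 the log2 difference was -0.61 ± 0.32 and did not pass (adjusted p = 0.1431, edgeR). Scaled by total counts it was -0.89 and passed (adjusted p = 0.03275). HA and IgG differed by 0.32 at T0 (adjusted p = 0.5603) and by -0.66 at T3 (adjusted p = 0.5322), with intervals of -0.51 to 1.15 and -2.08 to 0.76.

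Group means set the other 6 genes in different orders. For Sfrp5 HA T0 (129.6 ± 26.3 CPM) and HA T3 (119.0 ± 21.1) did not differ beyond their spread and lay above IgG T3 (8.75 ± 4.10) and IgG T0 (4.95 ± 2.18). For Sfrp1 HA T3 (651.5 ± 98.0) was above HA T0 (516.2 ± 13.9), and IgG T3 (134.7 ± 39.2) was followed by IgG T0 (89.3 ± 9.75), the last 2 not apart beyond their spread. For Fzd1 HA T3 (98.8 ± 18.8) came before HA T0 (64.8 ± 8.26), and IgG T0 (38.3 ± 10.3) and IgG T3 (34.0 ± 10.7) were alike within theirs. The other receptors and Axin2 had no such split by antibody. For Fzd2 both T0 groups (111.1 ± 7.39 in HA and 107.6 ± 5.90 in IgG) lay above both T3 groups (33.9 ± 29.9 in IgG and 23.4 ± 7.40 in HA), and the SDs of neighbours overlapped only within a time. For Fzd7 the order was HA T0 (31.8 ± 4.49), IgG T0 (25.3 ± 11.2), IgG T3 (18.1 ± 17.1) and HA T3 (13.1 ± 6.65), with no neighbours apart beyond their spread. For Axin2 it was HA T0 (20.5 ± 3.76), IgG T3 (17.6 ± 16.4), IgG T0 (14.4 ± 8.24) and HA T3 (11.2 ± 3.45), again with no neighbours apart.

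Counted over the 7 genes, 2 rose (Fzd1 and Sfrp1) and 3 fell (Fzd2, Wnt6 and Fzd7) between HA T0 and HA T3, whereas 33.8% of 9441 genes passed in either direction, 18.7% rose and 15.1% fell. The groups did not overlap for 6 of the 7, with Sfrp5 the exception, beside 50.8% of all genes tested. The median log2 change of the 7 genes was -0.61, against -0.02 over all genes. With total counts as the scale the median over all genes moved to -0.29, and the share of calls that were rises went from 55.4% to 31.1%. Relative to that shift, the falls of Fzd2, Wnt6 and Fzd7 and the rise of Fzd1 were called under both scales. In IgG, 3 of the 7 genes were tested between the times and 0 passed (edgeR, with 1, Fzd2, at an unadjusted p under 0.05, and 0 by DESeq2), beside 5.46% of 5219 genes. Fzd2 was also the 1 gene of these 3 whose IgG groups did not overlap, beside 26.0% of all genes tested.

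**Figure D2:**
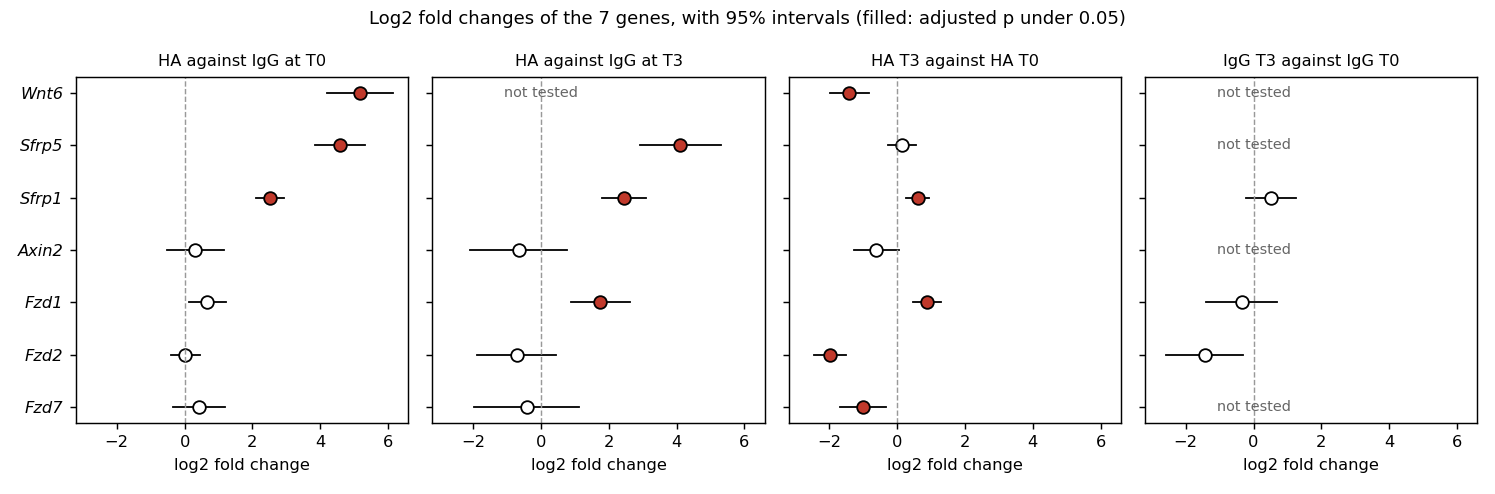
Log2 fold changes (horizontal axes) of the 7 genes in 4 comparisons, with 95% intervals from edgeR, filled where the adjusted p was under 0.05. HA exceeded IgG by 4.58 and 4.11 for Sfrp5 at T0 and T3, and in HA between T0 and T3 Fzd2 changed by -1.99 and Fzd1 by 0.88. Genes marked as not tested had too few counts.

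Whether HA and IgG changed unequally between T0 and T3 was tested with an interaction term in all 12 libraries. None of the 7 genes passed (0 of 7 in edgeR and in DESeq2, 1 at an unadjusted p under 0.05), beside 0.330% of 10314 genes. The median of this difference over all genes was 0.18, so values are to be read against it. Fzd1 came closest to the threshold, with a difference of 1.34 and an interval of 0.34 to 2.33 (adjusted p = 0.3132, edgeR). For Wnt6 the difference was -2.68 with an interval of -5.77 to 0.41 (adjusted p = 0.551), and for Fzd2 -0.49 with an interval of -1.62 to 0.64 (adjusted p = 0.8098). A difference between HA and IgG in their change with time was thus not detected for any of the 7 after adjustment. A fit that took each of the 6 animals as a block called 158 genes in place of 34, and none of the 7 was among them.

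The wider pathway was described with lists of ligands, secretion factors, receptors, inhibitors, R-spondins, signal transduction and target genes, 92 genes in all, of which 67 were in the table. At T0, 53 were tested, 15 were higher in HA and 4 were lower (over all genes 16.0% were higher and 14.4% lower), with a median log2 difference of 0.26 against -0.02 over all genes. With the animal as a block 27 passed in place of 19. The inhibitors held 7 of the 15: of 10 tested, 7 were higher in HA, 1 was lower and 2 did not pass, with a median of 2.00. Besides Sfrp5 and Sfrp1 they were Sostdc1 (4.44 ± 0.37, adjusted p = 3.452e-06), a secreted antagonist of Wnt and BMP signals, and 4 genes named after their values were seen, Frzb (3.66), Dkk2 (2.73), Kremen1 (1.49) and Dkk3 (1.47). Frzb is another Frizzled-related binder, Dkk2 acts on the Wnt co-receptors and Kremen1 is a receptor for Dkk proteins. Of 5 ligands tested, Wnt6 and Wnt11 (2.09, adjusted p = 0.0044, also named after its value was seen) were higher in HA and 3 did not pass. Of 12 receptors and co-receptors, 2 were higher and none lower. The counts at T0 include the 7 genes, chosen with earlier results known, and the 15 higher ones include Wnt6, Sfrp5 and Sfrp1. They therefore describe the lists and do not test any role as a class.

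The 4 pathway genes lower in HA at T0 were Rspo3 (-1.56 ± 0.30, adjusted p = 0.00163) and Rspo1 (-1.25 ± 0.33, adjusted p = 0.01428), secreted R-spondins that amplify Wnt signals, and Nkd1 (-1.35, adjusted p = 0.002866) and Dact1 (-1.01, adjusted p = 0.03193), intracellular modulators of Dishevelled. Dact1 did not pass in 7 of 13 alternatives and Rspo1 in 3 of 13. At T3, 44 pathway genes were tested, 10 were higher in HA and 3 lower (over all genes 11.8% and 10.2%). The cell cycle gene Ccnd1 (2.95, adjusted p = 1.169e-05) and the corepressor gene Tle3 (1.97, adjusted p = 0.0001655) were higher together with Sfrp1 and Sfrp5. The receptor gene Ror2 (-1.29, adjusted p = 0.008171), the transcription factor gene Tcf7l1 (-1.12, adjusted p = 0.04203) and the Dishevelled modulator Nkd2 (-1.05, adjusted p = 0.04542) were lower, and Tcf7l1 and Nkd2 did not pass in 7 and 10 of 13 alternatives.

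**Figure D3:**
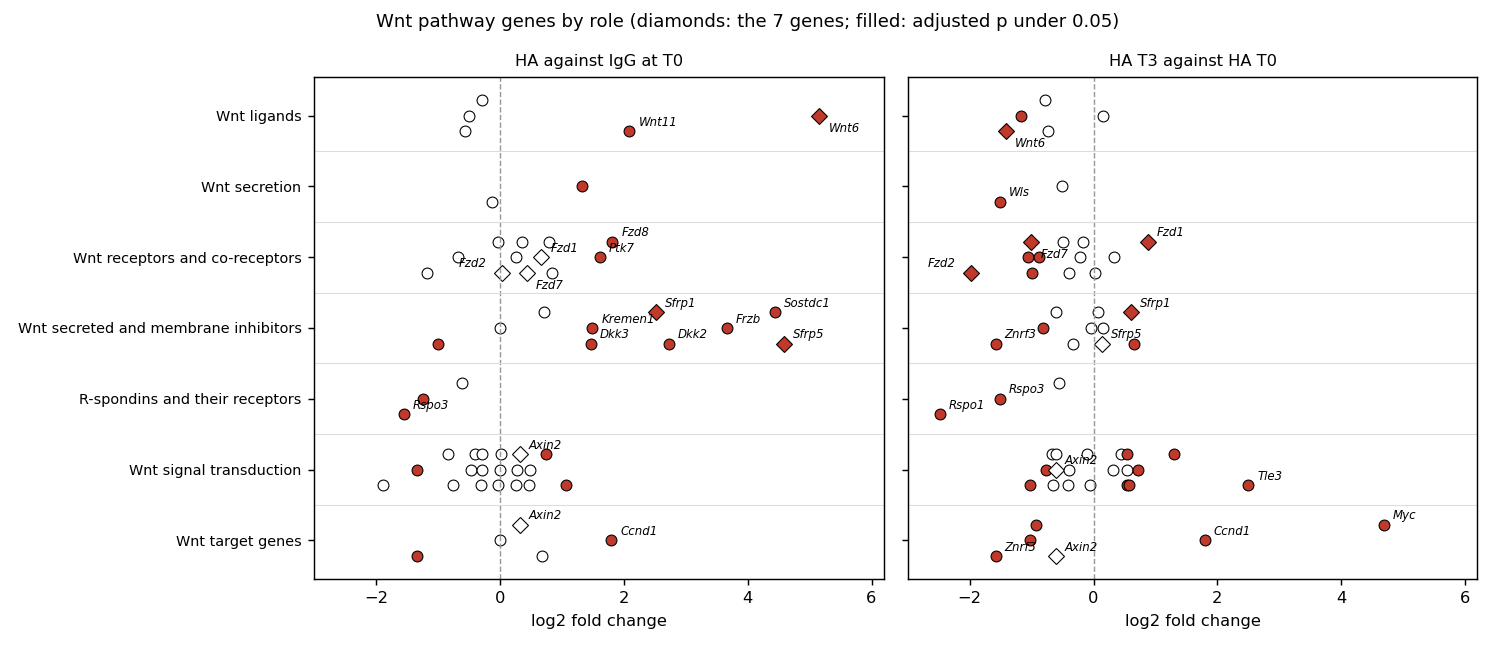
Log2 fold changes (horizontal axes) of the tested Wnt pathway genes, arranged by role, for HA against IgG at T0 (left) and HA T3 against HA T0 (right). Diamonds are the 7 genes and filled symbols have an adjusted p under 0.05. At T0, 7 of 10 inhibitors were higher in HA, among them the chosen genes Sfrp5 and Sfrp1. Of 12 receptors 5 fell and 1 rose after manipulation.

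Between HA T0 and HA T3, 54 pathway genes were tested, 11 rose and 15 fell (over all genes 18.7% rose and 15.1% fell), with a median of -0.39 against -0.02. Without the HA T3 library of animal 4, 16 passed in place of 26. The rises were led by Tle3 (2.50 ± 0.19, adjusted p = 2.268e-09) and Tle1 (1.30, adjusted p = 8.252e-05), which encode corepressors of TCF factors, and by Myc (4.69 ± 0.35, adjusted p = 8.563e-08) and Ccnd1 (1.79, adjusted p = 2.052e-07), growth genes that many signals besides Wnt induce. The falls were led by Rspo1 (-2.49 ± 0.28, adjusted p = 7.953e-07), Fzd2, Wls (-1.51, adjusted p = 0.0002371), the carrier that Wnt proteins need for secretion, and Wnt6. Of 12 receptors and co-receptors 5 fell and 1, Fzd1, rose. Of 6 target genes 2 rose, 3 fell and 1, Axin2, did not pass. In IgG, 27 pathway genes were tested and 0 passed in edgeR (5.46% of all genes did), with 7 at an unadjusted p under 0.05 and 2 called by DESeq2. For the interaction 0 of 54 passed in edgeR (0.330% of all genes did), with 8 at an unadjusted p under 0.05 and 1 called by DESeq2. With each of the 6 animals as a block 3 passed, Tle3 (1.46, adjusted p = 0.04176), Ccnd1 (1.43, adjusted p = 0.03734) and Dkk2 (-1.61, adjusted p = 0.0398).

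Several marker lists of other cell types, but not all, were lower in HA at T3, as were several of these genes. The 8 mesothelial markers summed to 218 to 280 CPM in HA T0 and 27.3 to 38.8 in HA T3, and to 672 to 1353 in IgG T0 and 147 to 233 in IgG T3. The 10 fibroblast markers summed to 1412 to 1960 CPM in HA T0 and 371 to 644 in HA T3, and to 3841 to 4908 in IgG T0 and 1368 to 2206 in IgG T3. All 7 mesothelial and 7 of 9 fibroblast markers tested fell in HA, in the same comparison in which Fzd2, Fzd7, Rspo1 and Wls fell. The 5 markers of interstitial cells of Cajal summed to 2790 to 3555 CPM in HA T0, 1333 to 1751 in HA T3, 278 to 368 in IgG T0 and 253 to 874 in IgG T3, with 3 of 5 lower and 1 higher at T3 in HA, in the comparison in which Wnt6 fell. Smooth muscle markers (15959 to 24488 CPM in HA T0 and 13139 to 15474 in HA T3) and macrophage markers (268 to 558 and 148 to 244) were also lower in HA at T3, with 3 of 10 and 2 of 5 of those tested past the threshold. These 2 sums did not overlap between the times, but only as scaled by library totals. The TMM factors used to scale the tests were 0.840 to 0.864 in HA T3 and 0.995 to 1.07 in HA T0, which brings the times closer. Epithelial markers were at 97.9 to 410.7 and 48.3 to 99.0 CPM, with 2 of 8 lower. Neuronal markers went the other way, at 943 to 1116 and 1042 to 1774 CPM, with 3 of 10 tested higher and 0 lower. Of 3 endothelial markers tested, 1 was higher and 0 lower. Over all single genes tested in HA between the times, 18.7% rose, 15.1% fell and 50.8% did not overlap. None of the markers of mesothelium, fibroblasts or interstitial cells of Cajal was at 0 throughout a group. Their part in the values of the Wnt genes was not tested, and in bulk libraries fewer cells of a type and less RNA per cell cannot be told apart.

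**Figure D4:**
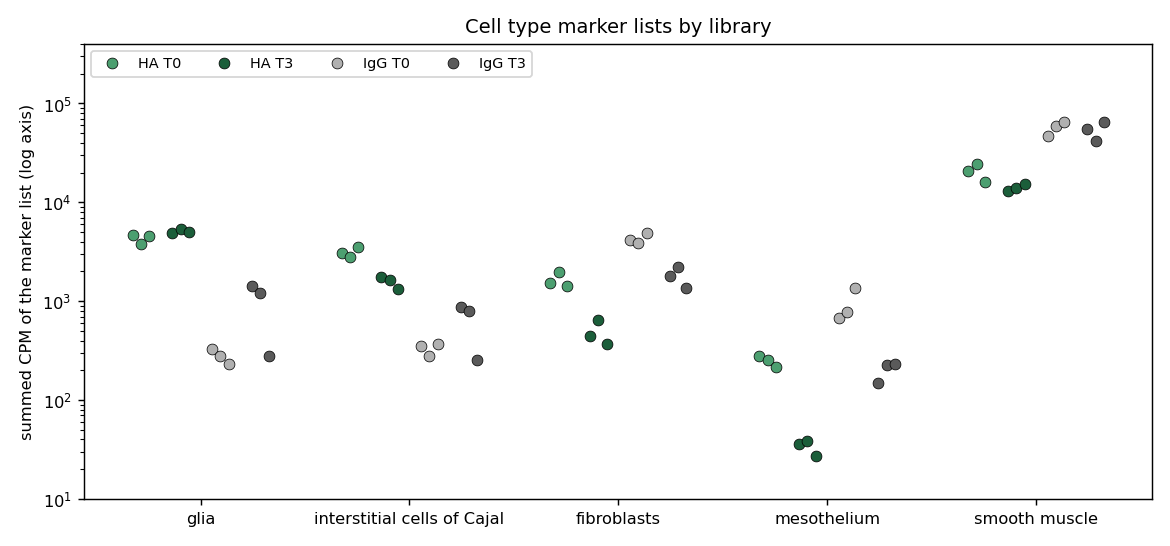
Summed CPM (vertical log axis) of the marker lists of 5 cell types, 1 point per library. Glial markers lay between 3781 and 5330 in the HA libraries of both times (3685 to 4568 at T0 and 3034 to 3658 at T3 without Gfap), while mesothelial markers were at 218 to 280 in HA T0 and 27.3 to 38.8 in HA T3.

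The glial markers themselves summed to 4914 to 5330 CPM in HA T3 and 278 to 1430 in IgG T3. The IgG T3 sums were 1430, 1206 and 278 CPM in animals 1, 3 and 4, beside 233 to 330 in IgG T0. Of 11 markers tested, 10 were higher in HA at T0 (median log2 difference 4.19) and 7 of 11 at T3 (median 2.83). In HA, Gfap, an intermediate filament gene of glia, went from 118.3 ± 19.7 CPM at T0 to 1715 ± 225.5 at T3, and Gpr37l1, a glial receptor gene, from 1723 ± 154.0 to 784.9 ± 217.5 (both singled out after their values were seen). Without Gfap the other 11 glial markers summed to 3685 to 4568 CPM in HA T0 and 3034 to 3658 in HA T3. This gap holds for scaling by library totals only, since the TMM factors were lower in HA T3 than in HA T0. Of 11 glial markers tested between these times in HA, 3 rose, 1 fell and 7 did not pass (over all genes 18.7% rose and 15.1% fell). Their median log2 change was 0.39, against -0.02 over all genes. The 10 smooth muscle markers were all lower in HA at T0, with 15959 to 24488 CPM against 46997 to 65450. No marker of neurons, macrophages, endothelium or epithelium was higher in HA at T0, and 8 of 12, 3 of 10, 2 of 3 and 5 of 10 of those tested were lower. Markers of interstitial cells of Cajal went with the glial ones, with 4 of 5 higher in HA at T0 (median 2.02) and 3 of 4 at T3 (median 1.52), and 0 lower.

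For each of the 7 genes, the 3 genes with the most similar log2 CPM over the 12 libraries were taken from 10313 others, by Pearson's r. These values describe libraries that share antibody, depth and time, and carry no test. Nearest to Wnt6 were Tspan3 (r = 0.989), Kit (0.979), a receptor tyrosine kinase and marker of interstitial cells of Cajal, and M6pr (0.976). Kit was at 970.8 ± 59.0 CPM in HA T0, 373.9 ± 90.4 in HA T3, 76.9 ± 16.7 in IgG T0 and 180.7 ± 101.3 in IgG T3, so in HA, but not in IgG, its mean was lower at T3, as was that of Wnt6. Nearest to Sfrp5 were Ctsd (0.987), Eng (0.985) and L1cam (0.985), and nearest to Sfrp1 were Bst2 (0.990), Pttg1ip (0.989) and Endod1 (0.988). Fzd2 was nearest to C87436 (0.961), Tcf21 (0.961), a transcription factor gene of mesenchymal cells, and Wls (0.959). Fzd1 was nearest to Tnfsf9 (0.961), Adamts14 (0.947) and Cited1 (0.939), Fzd7 to Adgrl2 (0.984), Adal (0.944) and Lrrc8d (0.941), and Axin2 to Trim11 (0.966), Eif2b2 (0.956) and Arap1 (0.952). None of the 7 genes was among the 3 nearest of another.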

How the data were processed

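RNA bound to precipitated ribosomes was sequenced in 12 libraries of 4 groups (HA or IgG, T0 or T3). Per the labels, the authors made libraries with a bulk MARS-seq protocol with unique molecular identifiers (UMIs), pooling up to 8 samples of similar qPCR cycle before amplification (pool membership is not given in the sources used here), trimmed with cutadapt, mapped with STAR 2.4.2a to mm10, kept unique mappings and counted UMIs with HTSeq over the 3′ ends of a Gencode annotation given as version 10. The deposited values are raw UMI counts per gene without normalisation. Unique mapping can lower counts of near-identical paralogs. Genes were to have at least 5 reads in some sample per the labels, and 189 of the 12975 genes never reached 5 counts. The series table and the sample files differed in 0 values.

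Counts were tested with edgeR 4.0.16 (R 4.3.3): robust quasi-likelihood F-test, TMM scaling, the filterByExpr filter, Benjamini-Hochberg adjustment over all genes tested and a threshold of 0.05. Comparisons of 2 groups used their 6 libraries and the interaction used all 12, without covariates. CPM is counts per 1000000 of the library total, given as mean ± SD of 3. The steps were tested on simulated data without pairing, in which only genes expected above 5 counts in the smallest library were changed. Changes in genes with fewer counts were not covered. Alternatives were RLE and total count scaling, no filter, a minimum of 5 counts in 1 library, the DESeq2 1.42.0 Wald test, all 12 libraries in 1 fit, a replicate block (the animal, or between T0 and T3 the number that different mice share) and leaving out each library. HA and IgG libraries of a number come from 1 animal, and their deviations from the group means correlated at 0.268, 0.269 and 0.273 at T0 and 0.162, 0.153 and 0.0887 at T3. Named genes were the 7 genes in every library and comparison, at most 4 pathway genes per direction and comparison in order of p, and 3 nearest genes by Pearson's r of log2 CPM (prior count 2). Gene positions are from GENCODE M21 on GRCm38 and promoters from RefSeq. The genes and lists were chosen with earlier results of these data known.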

Additional observations from a re-analysis of the deposited data

How the results depend on the processing

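Over 46 results for single genes, 626 alternatives were run, of which 578 kept direction and side of the threshold, 32 no longer passed, 6 newly passed and 10 changed sign. The causes of these changes were not tested. Sign changes came without 1 library (range over libraries left out) in HA against IgG for Fzd2 at T0 without the HA library of animal 2 (-0.036 to 0.0999), Fzd7 at T0 without the IgG library of animal 4 (-0.0067 to 0.76), Fzd7 at T3 without the IgG library of animal 1 (-0.72 to 0.025) and Fzd2 at T3 without the IgG library of animal 4 (-1.03 to 0.33), and, in HA between the times, Sfrp5 scaled by total counts (-0.13) and with the replicate block (-0.0993). In the interaction they were Sfrp1 scaled by total counts (-0.18) and without the IgG T3 library of animal 4 (-0.068 to 0.35), Sfrp5 without the IgG T3 library of animal 1 (-0.77 to 0.0047) and Fzd2 without the IgG T3 library of animal 4 (-0.96 to 0.42).

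Counts of genes past the threshold moved as follows. For HA against IgG at T3, pathway genes went from 13 to 20 without a filter and, leaving out 1 library, to between 7 and 19, and all genes from 1578 to between 849 and 1977. Pathway genes in HA between the times went from 26 to between 16 and 24. For IgG between the times, all genes went from 285 to 519 without a filter and 705 with all 12 libraries fitted, and leaving out 1 library to between 162 and 334. Of the 7 genes 1 passed there, Fzd2, in those same 2 alternatives. Of the pathway genes 4 passed there without a filter, 1 with at least 5 counts, 2 with DESeq2, 3 with all 12 libraries fitted, 1 with the replicate block and 0 or 1 without 1 library. For the interaction, all genes went from 34 to 20 with RLE, 8 with total counts, 80 with DESeq2, 158 with the replicate block and between 5 and 95 without 1 library, and pathway genes from 0 to 1 with DESeq2, 3 with the block and 0 or 1 without 1 library. The share of higher calls moved by over 10 points for HA against IgG at T3 with all 12 fitted (69.0% against 53.6%) and without the IgG T3 library of animal 4 (66.1%), for HA between the times by total counts (31.1% against 55.4%), for IgG between the times without a filter (63.0% against 81.1%) and with all 12 fitted (63.1%), and for the interaction by total counts (75.0% against 91.2%), with DESeq2 (63.8%) and without the IgG T3 library of animal 4 (71.6%). Animals 1 and 4 at T0 and T3 share only a number (correlations 0.157 and 0.0111 in HA), and the block over them changed no call for the 7 genes. The block of 1 animal changed 1 call among the 7, Fzd1 at T0, where all genes called went from 2980 to 3807 and pathway genes from 19 to 27.

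Depth limits the IgG T3 group most: 4 of the 7 genes had a library at 0 there, and its pooled counts were 2 for Wnt6 and 3 for Sfrp5.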
